A study of Mus musculus with 12 samples.

Results

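The clustered histone genes of the mouse lie side by side in a few gene clusters and encode the histones that package newly copied DNA. Members were all genes of the count table whose symbol starts with Hist1h, Hist2h, Hist3h or Hist4h, a rule that used no measured value. It found 69 of 24495 genes, of which 6 encode the linker histone H1, 19 encode H2A, 19 encode H2B, 12 encode H3 and 13 encode H4. In the mm9 genome 55 members lie on chromosome 13, 10 on chromosome 3, 3 on chromosome 11 and 1 on chromosome 6. The annotation gives 67 members as coding and 2, Hist2h3c2 and Hist3h2bb-ps, as pseudogenes. Hist1h2al lies apart from the other chromosome 13 members, at chr13:51298057-51298434, and the newer RefSeq annotation names it as an H2A pseudogene.

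The study measured polyadenylated RNA by sequencing in CCE-Nanog-GFP cells, a mouse embryonic stem cell (mESC) line, with and without knockdown of Ctsl, the gene of the protease cathepsin L. All groups carried an shRNA vector and puromycin selection: shSC, a scrambled control labelled scr, and shCTSL, labelled CTSL KD, of which 1 line was sequenced without a label that tells which hairpin it held. At Day 0 the cells were undifferentiated, grown on gelatin with LIF and sorted for GFP, and at Day 2 and Day 4 they were embryoid bodies without LIF under 10 µM all-trans retinoic acid. Each of the 6 groups had 2 libraries, called replicate 1 and replicate 2.

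Most mRNAs of the clustered histone genes end in a conserved stem-loop and carry no poly(A) tail. The stem-loop is bound by SLBP, the stem-loop-binding protein, and the mRNAs are made during DNA replication, when the cell doubles its chromatin. Some of the genes also give longer, polyadenylated transcripts that run past the stem-loop. H2A, H2B, H3 and H4 form the core of the nucleosome, and H1 binds the linker DNA between nucleosomes. The libraries were poly(A) selected, so the counts cover the histone transcripts that passed this selection and do not measure total histone mRNA. Whether a count came from a transcript with a tail or from one without it cannot be told apart in a table of counts per gene.

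In shSC the libraries held 15510058 and 19344654 counts at Day 0, 27155553 and 20783323 at Day 2, and 21885578 and 13434182 at Day 4 (replicate 1 first here and throughout). In shCTSL they held 15627577 and 11171111 counts at Day 0, 15415364 and 21213919 at Day 2, and 16815622 and 18246185 at Day 4. The 69 members together took 613 to 1242 counts of a library.

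Ctsl checked the labels of the knockdown. Its level in shSC was 137 and 147 normalized CPM (counts over library size, scaled by TMM) at Day 0, 369 and 391 at Day 2, and 484 and 423 at Day 4. In shCTSL it was 39.2 and 37.5 at Day 0, 211 and 155 at Day 2, and 257 and 253 at Day 4. The shCTSL libraries had less Ctsl than the shSC libraries of the same day without overlap, and within shCTSL the level at Day 4 was above that of shSC at Day 0. The log2 difference between the lines was -1.89 ± 0.15 (SE) at Day 0 (adjusted p = 0.00246), -1.06 ± 0.14 at Day 2 (adjusted p = 0.0342) and -0.83 ± 0.14 at Day 4, which did not pass the test (adjusted p = 0.0896). With replicate 1 of shCTSL Day 2 left out the Day 2 difference was -1.28 ± 0.10 (adjusted p = 5.85e-06), and with replicate 2 left out it was -0.85 ± 0.10 (adjusted p = 2.68e-06).

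The days were checked against marker genes. All 8 mESC markers were called lower on both later days in each line, or 7 at Day 2 in shCTSL without replicate 2. Pou5f1 was the most abundant of them at Day 0, and Dppa5a, Sox2 or Pou5f1 on the later days. Their summed level in shSC was 6327 and 6432 normalized CPM at Day 0, 1046 and 1055 at Day 2, and 419 and 351 at Day 4, and in shCTSL it was 6026 and 5990, 1386 and 963, and 347 and 409.8. All 8 markers of differentiating embryoid bodies were called higher, and Hoxb1 was at 0 in shSC Day 0 replicate 1. Their sum, led by Gata4 at Day 0 and by Cyp26a1 later, was 11.4 and 11.2, 1942 and 1918, and 1243 and 1311 in shSC, and 11.9 and 12.4, 2496 and 2093, and 1381 and 1317 in shCTSL. Of 5 fibroblast markers 4 were called higher by Day 4 in each line and Thy1 was called lower. The fibroblast sum, led by Thy1 at Day 0, Col1a2 at Day 2 and Col1a1 at Day 4, was 10.8 and 10.2, 27.4 and 28.3, and 56.7 and 67.8 in shSC, and 8.13 and 6.53, 21.2 and 24.9, and 62.3 and 64.7 in shCTSL. Dcn was at 0 in shSC Day 0 replicate 1 and in both shCTSL Day 0 libraries, and Postn in shCTSL Day 0 replicate 2. The markers' part in the histone results was not tested.

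The shCTSL Day 2 libraries stand apart from each other, and the histone genes are among the genes by which they differ. The members took 80.6 CPM without normalization in replicate 1 (exact Clopper-Pearson 95% interval 76.2 to 85.2) and 35.4 in replicate 2 (32.9 to 37.98). Of the 41 members with at least 10 counts over the pair, 40 had the higher normalized CPM in replicate 1. In units of counting error, a chi-square per degree of freedom, members differed between the replicates by 12.2 in shCTSL Day 2 and by 0.891 to 3.38 in the other 5 groups, and all genes by 129.9 against 2.61 to 10.1. The pair also differed by transcript length: the median log2 ratio of replicate 1 to replicate 2 was 0.70 over the 606 genes with under 1 kb of exons, 0.49 over 2203 genes of 1 to 2 kb, 0.10 over 5032 genes of 2 to 4 kb and -0.33 over the 6186 genes of 4 kb and more. In the other groups these medians lay between -0.15 and 0.11. Among the members 54 of 69 have under 1 kb of exons.

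Some transcripts without a tail also differed between the pair. The 45S ribosomal RNA precursor Rn45s took 3.43% of all counts in shCTSL Day 2 replicate 1 and 0.553% in replicate 2, against 0.170% to 1.43% in the other 10 libraries. The 120 other genes of RNAs without a poly(A) tail, mostly small nucleolar RNAs, summed to 164 normalized CPM in replicate 1 and 81.7 in replicate 2. Single RNAs differed by varying amounts: Snora74a stood at 0.369 and 0.341 in the pair, and Snord42b at 0.431 and 0.170. Over the 72 tested RNAs without a tail, Rn45s included, the median log2 difference of shCTSL from shSC at Day 2 was -0.21 without replicate 1 and 0.25 without replicate 2. Their part in the histone values was not tested. Results for members and listed genes in comparisons with this group are therefore given also with 1 of its libraries left out.

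**Figure D1:**
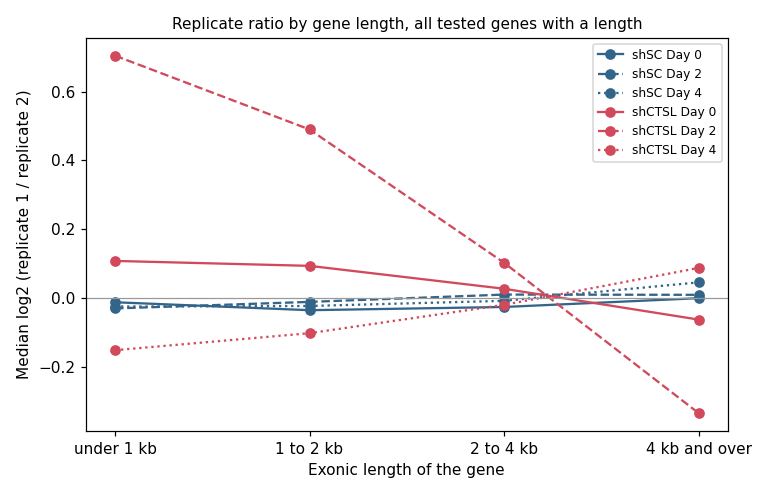
Median log2 ratio of replicate 1 to replicate 2 (y axis) in 4 classes of exonic length (x axis), with 1 line for each of the 6 groups. The shCTSL Day 2 pair falls from 0.70 under 1 kb to -0.33 at 4 kb and over, and the other groups stay between -0.15 and 0.11.

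All 69 members together held 10338 counts in the 12 libraries. H2B genes held 36.0% of them, H2A 23.5%, H1 22.2%, H4 10.4% and H3 7.89%, shares of counts that are not corrected for length. Per library 50 to 57 members were detected, and 37 members were detected in every library. In 9 members no library held a count: Hist2h3c2, Hist2h3c1, Hist2h2aa1, Hist2h2aa2, Hist1h2bq, Hist1h2br, Hist1h2ao, Hist1h2ap and Hist1h4m. A count of 0 allows 0.110 to 0.269 CPM, depending on the library. After the filter on low counts 24 members were tested among 15532 genes: 5 of H1, 5 of H2A, 6 of H2B, 5 of H3 and 3 of H4.

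Near-identical sequence limits what could be counted, since alignments of low mapping quality had been removed. Of the 9 members at 0, 6 have no 75-base exonic window (the read length) that is found only once in the genome, and no other member is without one. For the tested members the median share of such windows was 79.1%, and for the others 41.4%. Of the 41 members at or above 50%, 21 were tested, and of the 28 below it, 3. The other members at 0 had such windows, 44.85% in Hist2h3c1, 36.82% in Hist2h3c2 and 10.98% in Hist1h4m. In the 6 without any, a count of 0 therefore does not show that the gene is silent. In the others it gives only the bounds above, for the sequence that could be counted.

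Few genes held most of the counts. Hist1h2bc (1955 counts), Hist1h1c (1512), Hist3h2a (1473) and Hist3h2ba (664) made up 54.2% of all member counts, and between 39.0% (shCTSL Day 2 replicate 1) and 66.2% (shCTSL Day 4 replicate 1) of those in a library. Per kilobase of annotated exon, the mean level was 13.6 normalized CPM for Hist1h2bc, 4.66 for Hist3h2ba, 4.504 for Hist1h1c, 3.27 for Hist3h2a and 3.18 for Hist1h4i. The chromosome 11 members, Hist3h2a, Hist3h2ba and the pseudogene Hist3h2bb-ps, thus held 20.7% of the counts with 3 of 69 genes, and the 55 members on chromosome 13 held 73.0%. Exons of Hist3h2a overlap those of Trim17 on the same strand, which stood at 0 and 0.124 normalized CPM in shSC Day 0, 2.32 and 2.10 at Day 2 and 0.840 and 1.11 at Day 4.

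Most of the counts came from members with a long annotated 3′ end, although such members were the minority. A transcript annotated for more than 200 bases past the stop codon is called long here, and 17 coding members have one. These 17 held 65.4% of the member counts, and the 50 short ones held 3575 of 10338 counts. Of the 6757 counts of long members 5604 came from Hist1h2bc, Hist1h1c, Hist3h2a and Hist3h2ba. These shares are not corrected for exon length, and long members mostly have more annotated exon. Per kilobase of annotated exon, the other long members ranged from 0 to 0.813 normalized CPM (Hist1h3e). The short members ranged from 0 to 3.18 (Hist1h4i). By class the long members held 86.9% of H2B counts, 74.2% of H1, 64.5% of H2A, 25.5% of H3 and 3.91% of H4 counts. The annotated transcript runs 1487 bases past the stem-loop in Hist3h2a, 839 in Hist1h1c and 166 in Hist3h2ba. In Hist1h2bc the stem-loop lies in an intron of the only annotated transcript.

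The stem-loop was searched as GGNNNTNTNNANNNCC on the coding strand, within 100 bases after the stop codon. It was found in 61 of 67 coding members (91%), 22 to 59 bases after the stop, and in 197 of 22171 other coding genes (0.889%). The polyadenylation signal AATAAA was found within 300 bases after the stop, on the coding strand, in 7 of 67 members (10.4%) and in 7367 of the other genes (33.2%). The 6 coding members without the stem-loop in this window were Hist2h2be, Hist2h2bb, Hist1h2an, Hist1h3g, Hist1h4a and Hist1h2al. A match is a description and not a tested site, and no match says only that the letters were not in the window. Measured on the annotated transcript that runs farthest, the stem-loop lay in an exon in 42 members, past the annotated end in 15 and in an intron in 4.

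The 61 stem-loops came in 6 spellings, and the following 26-base windows show each of them at members the counts turn on or that carry a rare spelling, with the stem-loop in capitals and the coding strand written 5′ to 3′.
Hist3h2a: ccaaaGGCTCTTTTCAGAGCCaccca
Hist3h2ba: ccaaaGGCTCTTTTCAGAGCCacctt
Hist1h2bc: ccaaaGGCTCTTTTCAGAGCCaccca
Hist1h2ae: acaaaGGCTCTTTTCAGAGCCattca
Hist1h1c: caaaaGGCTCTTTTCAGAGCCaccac
Hist1h3c: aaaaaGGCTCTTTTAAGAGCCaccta
Hist2h2ac: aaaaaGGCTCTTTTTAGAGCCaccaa
Hist1h4k: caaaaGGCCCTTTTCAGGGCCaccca
Hist1h4i: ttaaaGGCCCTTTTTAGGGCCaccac
Hist1h4j: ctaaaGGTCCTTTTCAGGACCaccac
The windows lie in mm9 (NCBIM37) at chr11:58768669-58768694 on the plus strand (Hist3h2a), chr11:58762846-58762871 plus (Hist3h2ba), chr13:23776511-23776536 plus (Hist1h2bc), chr13:23662532-23662557 minus (Hist1h2ae), chr13:23831376-23831401 plus (Hist1h1c), chr13:23836911-23836936 minus (Hist1h3c), chr3:96024336-96024361 minus (Hist2h2ac), chr13:21842014-21842039 minus (Hist1h4k), chr13:22132830-22132855 minus (Hist1h4i) and chr13:21827301-21827326 plus (Hist1h4j). The spelling of Hist3h2a was shared by 39 members of H1, H2A, H2B and H3, and that of Hist1h3c by 9 members of the same classes. All 12 H4 stem-loops had a spelling found in no other class: that of Hist1h4k in 8 genes, that of Hist1h4i in 2 and that of Hist1h4j in 2. Hist3h2a and Hist3h2ba, called higher at Day 4, shared their spelling with Hist1h2ae and Hist1h2bc, called lower in both lines, and with Hist1h2bp, Hist1h2ab and Hist1h3d, called lower in shCTSL. Of the other members called lower at Day 4 in shCTSL, Hist1h3c had another spelling and Hist1h3g no stem-loop in the window.

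Summed over each class, the levels at Day 2 in shSC were below those at Day 0. All members together stood at 54.4 and 50.1 normalized CPM in shSC Day 0, 26.9 and 35.3 at Day 2, and 54.4 and 54.0 at Day 4. In shCTSL they stood at 59.5 and 64.6 at Day 0, 76.4 and 31.9 at Day 2, and 44.9 and 47.3 at Day 4. The shSC Day 2 libraries lay below the other shSC libraries without overlap, and the shCTSL Day 2 pair spanned all other libraries of that line. In bulk libraries, fewer cells that make a transcript and less of it per cell cannot be told apart.

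The classes did not share 1 course. H2B summed to 21.2 ± 0.927 (SD, n = 2) normalized CPM in shSC Day 0, 11.9 ± 2.11 at Day 2 and 17.5 ± 0.704 at Day 4, and in shCTSL to 27.3 ± 1.90, 16.6 ± 8.12 and 15.1 ± 0.873. H2A summed to 10.2 ± 1.05, 6.94 ± 0.280 and 14.9 ± 0.971 in shSC, and to 10.9 ± 1.35, 11.9 ± 5.04 and 13.6 ± 0.0283 in shCTSL. The linker class H1 summed to 9.95 ± 0.382, 7.19 ± 2.71 and 13.0 ± 0.160 in shSC, and to 10.5 ± 0.297, 13.3 ± 8.97 and 11.1 ± 0.707 in shCTSL. So H2A was highest at Day 4 in shSC, whereas H2B was highest at Day 0 in both lines. The H2A sum at Day 4 was mostly 1 gene, Hist3h2a, with a mean of 3.13 at Day 0 and 12.6 at Day 4 in shSC, while 4 of the 5 tested H2A genes had a negative log2 fold change there. H3 summed to 5.02 ± 0.444, 2.16 ± 0.473 and 3.60 ± 0.285 in shSC, and to 7.11 ± 0.668, 4.65 ± 3.69 and 2.48 ± 0.241 in shCTSL. H4 summed to 5.89 ± 1.05, 2.85 ± 0.367 and 5.14 ± 0.108 in shSC, and to 6.11 ± 0.00546, 7.70 ± 5.65 and 3.75 ± 0.330 in shCTSL. The SD of shCTSL Day 2 exceeded that of every other group in all 5 classes, and no test was made on these sums. Its libraries stood at 19.6 and 6.94 for H1, 15.5 and 8.39 for H2A, 22.3 and 10.9 for H2B, 7.26 and 2.04 for H3, and 11.7 and 3.70 for H4.

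**Figure D2:**
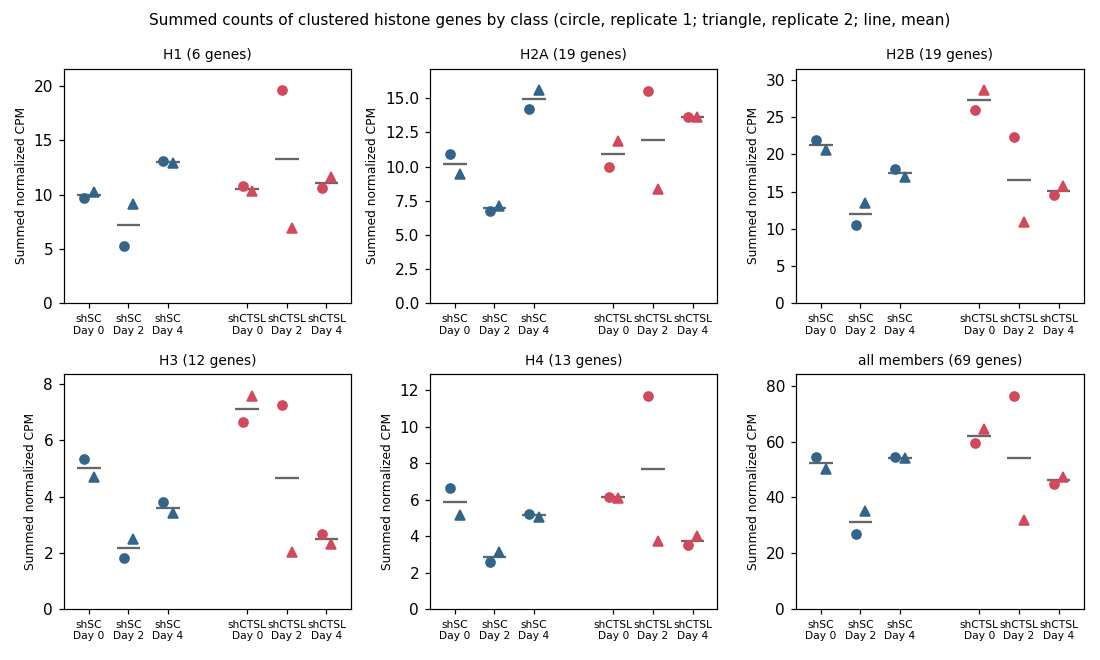
Summed normalized CPM (y axis) of the members of each histone class by day (x axis), with a point for each library and the mean of each group, shSC and shCTSL side by side. The shCTSL Day 2 libraries lie at 19.6 and 6.94 for H1 and at 22.3 and 10.9 for H2B.

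Members with long and with short annotated 3′ ends were also summed apart. In shSC the 17 long members summed to 30.4 ± 0.336 normalized CPM at Day 0, 20.5 ± 3.61 at Day 2 and 40.04 ± 0.432 at Day 4, and the 50 short members to 21.8 ± 2.75, 10.6 ± 2.34 and 14.1 ± 0.129. In shCTSL the long members summed to 36.0 ± 2.71, 30.7 ± 13.7 and 34.7 ± 0.608, and the short members to 25.97 ± 0.962, 23.5 ± 17.8 and 11.4 ± 1.09. The long sum was carried by the 4 members with most counts: the other 13 long members, a set chosen after seeing the data, summed to 6.50 ± 0.355 at Day 0 and 5.64 ± 0.331 at Day 4 in shSC, and to 6.80 ± 0.963 and 4.24 ± 0.432 in shCTSL. The difference between long and short members was not tested. In each line the short members thus stood lower at Day 4 by more than the spread between replicates. Of the 10 long members tested, 2 were called higher and 1 lower in shSC at Day 4 against Day 0, and 2 higher and 2 lower in shCTSL. Of the 14 short members tested, 0 were called higher in either line, 1 was called lower in shSC and 5 in shCTSL, beside 28.7% and 27.6% of all genes tested called lower and 32.1% and 32.3% called higher. The median log2 fold changes were -0.11 (long) and -0.78 (short) in shSC, and -0.49 and -1.30 in shCTSL.

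The comparison of days asked how these transcripts moved as the stem cells differentiated. At Day 2 against Day 0 in shSC, 1 of 24 tested members was called higher and 6 lower, beside 29.3% and 25.3% of all genes tested (called means that the adjusted p was under 0.05 and the change reached 1.5-fold). The median log2 fold change was -0.87 over the 24 members and 0.02 over all genes tested. The member called higher was Hist3h2ba, and the 6 called lower were Hist1h2bp, Hist1h3g, Hist1h2ae, Hist1h3a, Hist1h4i and Hist1h2bc. The share called lower, 25%, was near that of all genes, and the share called higher, 4.17%, was below it. Some of the 7 calls were lost when 1 library was left out, as given for each gene below.

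At Day 4 against Day 0 in shSC, 2 members were called higher and 2 lower, beside 32.1% and 28.7% of all genes tested. Hist3h2ba and Hist3h2a were higher, and Hist1h2ae and Hist1h2bc lower. The median was -0.26 over the members tested and 0.03 over all genes. From Day 2 to Day 4 in shSC, 3 members were called higher, Hist3h2a, Hist3h2ba and Hist1h1c, beside 11.4% of all genes, and 0 of 24 lower by edgeR, beside 12.4% (0 lower also at an unadjusted p under 0.05, and 0 by DESeq2). Of the members tested 20 had a positive log2 fold change here, with a median of 0.76 against 0.02 over all genes. Leaving out both shCTSL Day 2 libraries, which this comparison does not use, raised the 3 calls to 6. The share of all genes called rose as well, from 23.8% to 28.1%.

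In shCTSL, 2 members were called higher at Day 2 than at Day 0 and 4 lower, beside 30.9% and 24.6% of all genes tested. Hist3h2ba and Hist3h2a were higher, and Hist1h3g, Hist1h2ae, Hist1h2bc and Hist2h2be lower. The result rests on which Day 2 library is used: 10 of 24 members had a positive log2 fold change with both libraries, 3 without replicate 1 and 15 without replicate 2. Without replicate 1, 2 members were called higher and 8 lower, and without replicate 2, 9 were called higher and 3 lower, beside 32.1% and 25.4% of all genes in the first setting and 31.5% and 27.2% in the second. The median moved with it, from -0.16 with both to -1.15 without replicate 1 and 0.51 without replicate 2.

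At Day 4 against Day 0 in shCTSL, which uses neither of these libraries, 2 members were called higher and 7 lower, beside 32.3% and 27.6% of all genes tested. Hist3h2ba and Hist3h2a were again higher, and Hist1h2bp, Hist1h2ab, Hist1h2ae, Hist1h3d, Hist1h3c, Hist1h3g and Hist1h2bc were lower. The median was -0.96 over the 24 members and 0.06 over all genes, and 19 had a negative log2 fold change. Several of the 9 calls did not hold when 1 library was left out, as given for each gene below.

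From Day 2 to Day 4 in shCTSL, 1 member was called higher and 1 lower, beside 11% and 12.4% of all genes tested, namely Hist3h2a and Hist1h1b. Without Day 2 replicate 1 the counts were 3 higher and 1 lower, and without Day 2 replicate 2 they were 0 higher and 11 lower, beside 11.7% higher and 13.9% lower of all genes without replicate 1 and 20.9% and 18.9% without replicate 2, while the median log2 fold change went from -0.69 to 0.29 and -1.13. The calls of Hist3h2a and Hist1h1b were lost on leaving out either shCTSL Day 4 library, as given below. With all libraries 3 members were under an unadjusted p of 0.05, beside 41.0% of all genes tested. DESeq2 called 2 members, beside 22.7% of all genes.

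**Figure D3:**
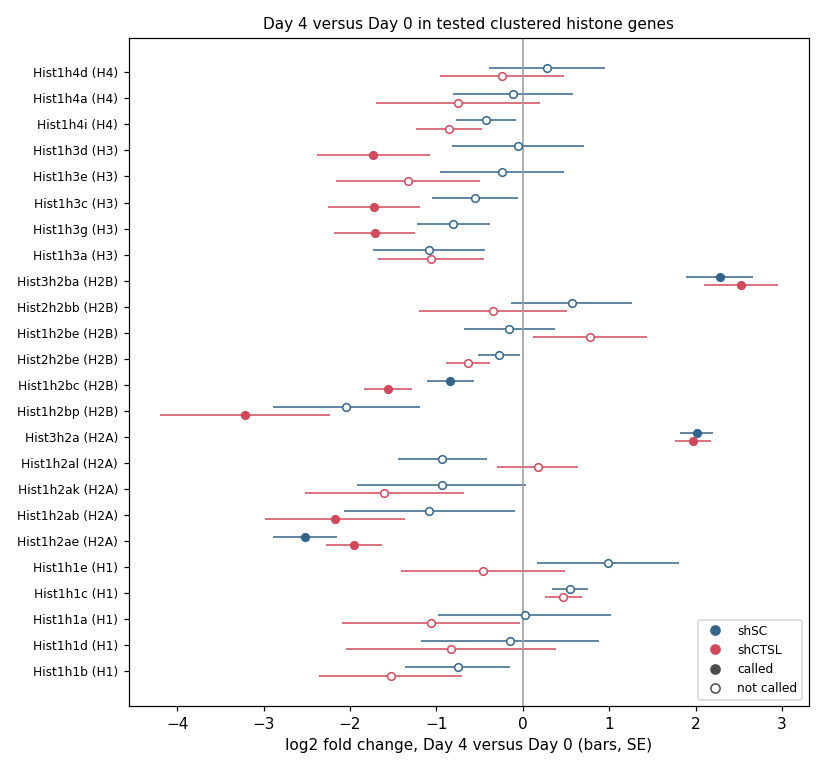
Log2 fold change at Day 4 against Day 0 (x axis) of the 24 tested members (y axis), grouped by class, in shSC and shCTSL, with bars for the SE. Hist3h2ba and Hist3h2a lie at 2.28 and 2.01 in shSC and at 2.53 and 1.97 in shCTSL, and Hist1h2ae at -2.53 and -1.95.

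Hist3h2a encodes an H2A and lies on chromosome 11. Its level was 3.35 and 2.91 normalized CPM in shSC Day 0, 4.08 and 4.16 at Day 2, and 12.3 and 12.9 at Day 4, and in shCTSL it was 2.31 and 2.84, 7.57 and 5.49, and 10.1 and 9.94. Every Day 4 library lay above every Day 0 and Day 2 library. The log2 fold change at Day 4 against Day 0 was 2.01 ± 0.19 (SE) in shSC (adjusted p = 7.23e-06) and 1.97 ± 0.21 in shCTSL (adjusted p = 1.4e-05), each higher in 2 of 2 libraries. The lines differed in this change by -0.04 ± 0.29 (adjusted p = 0.992). In shSC the change from Day 2 to Day 4 was 1.61 ± 0.18 (adjusted p = 0.000126), and that by Day 2 was 0.40 ± 0.20 and did not pass (adjusted p = 0.105), although both Day 2 libraries lay above both Day 0 libraries. In shCTSL the change by Day 2 was 1.34 ± 0.21 (adjusted p = 0.0003), and whether the lines differed in it was not tested. The later change in shCTSL, 0.63 ± 0.18 from Day 2 to Day 4 (adjusted p = 0.0232), did not pass without Day 2 replicate 2 (adjusted p = 0.0543), Day 4 replicate 1 (0.11) or Day 4 replicate 2 (0.0866), or with only the libraries compared (0.223).

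Hist3h2ba, an H2B gene of the same cluster, followed the same order. It stood at 1.30 and 0.805 normalized CPM in shSC Day 0, 1.99 and 2.50 at Day 2, and 4.73 and 5.41 at Day 4, and in shCTSL at 0.895 and 0.737, 4.55 and 2.21, and 4.11 and 5.46. The Day 0 libraries were below all others, and the Day 2 and Day 4 libraries of shCTSL overlapped. It rose from Day 0 to Day 4 with a log2 fold change of 2.28 ± 0.39 in shSC (adjusted p = 0.000426) and 2.53 ± 0.42 in shCTSL (adjusted p = 0.000401), and the lines differed by 0.24 ± 0.61 (adjusted p = 0.946). Its rise by Day 2 was 1.11 ± 0.41 in shSC (adjusted p = 0.0351) and 1.99 ± 0.44 in shCTSL (adjusted p = 0.00262). The shSC call at Day 2 was lost without Day 0 replicate 2 (adjusted p = 0.199), Day 2 replicate 1 (0.0531) or Day 2 replicate 2 (0.129). From Day 2 to Day 4 the change was 1.18 ± 0.32 in shSC (adjusted p = 0.0197, and 0.0626 to 0.147 without any 1 of the 4 libraries compared) and 0.54 ± 0.32 in shCTSL, which did not pass (adjusted p = 0.234). With Day 2 replicate 1 left out the shCTSL change was 1.09 ± 0.28 and was called (adjusted p = 0.00418), and with replicate 2 left out it was 0.08 ± 0.26 (adjusted p = 0.812). This difference between the lines was not tested.

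Hist1h2ae, an H2A gene on chromosome 13, moved the other way. Its level was 2.52 and 2.54 normalized CPM in shSC Day 0, 0.664 and 0.700 at Day 2, and 0.398 and 0.485 at Day 4, and in shCTSL it was 3.06 and 3.58, 1.23 and 0.809, and 0.541 and 1.13. All Day 0 libraries lay above all later ones, and in shCTSL the Day 2 and Day 4 libraries overlapped. It was lower by Day 2, with a log2 fold change of -1.88 ± 0.32 in shSC (adjusted p = 0.000544) and -1.72 ± 0.32 in shCTSL (adjusted p = 0.000901). The change from Day 0 to Day 4 was -2.53 ± 0.37 in shSC (adjusted p = 0.00016) and -1.95 ± 0.33 in shCTSL (adjusted p = 0.0004), and the lines differed by 0.57 ± 0.51 (adjusted p = 0.874).

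Hist1h2bc, the H2B gene with the highest level per kilobase, was also highest at Day 0. It stood at 13.3 and 13.4 normalized CPM in shSC Day 0, 5.51 and 7.004 at Day 2, and 7.91 and 6.93 at Day 4, and in shCTSL at 17.8 and 20.6, 9.72 and 4.85, and 6.71 and 6.30. Each Day 0 library lay above every Day 2 and Day 4 library, and the shCTSL Day 0 libraries above those of shSC. Its log2 fold change by Day 2 was -1.10 ± 0.27 in shSC (adjusted p = 0.00487) and -1.42 ± 0.27 in shCTSL (adjusted p = 0.00111), and by Day 4 it was -0.84 ± 0.27 (adjusted p = 0.0182) and -1.56 ± 0.27 (adjusted p = 0.000543). The Day 4 call in shSC was lost without either Day 0 library (adjusted p = 0.0591 and 0.0631) or either Day 4 library (0.0531 and 0.092). The lines differed in this change by -0.72 ± 0.38 (adjusted p = 0.779), and at Day 0 by 0.52 ± 0.26 (adjusted p = 0.734).

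**Figure D4:**
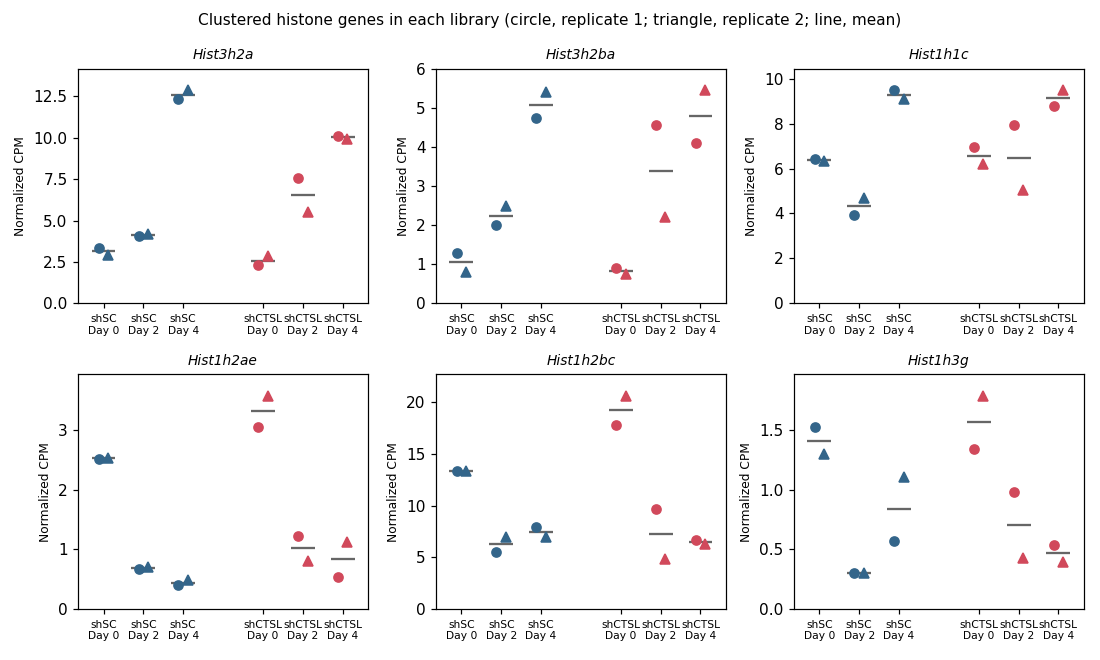
Normalized CPM (y axis) of Hist3h2a, Hist3h2ba, Hist1h2ae, Hist1h2bc, Hist1h1c and Hist1h3g by day (x axis), with a point for each library of shSC and shCTSL. Hist3h2a reaches 12.3 and 12.9 in shSC Day 4, and Hist1h2bc stands at 17.8 and 20.6 in shCTSL Day 0.

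Among the linker histone genes, Hist1h1c held 1512 of 2298 counts and was the only H1 gene of the 5 tested with a call at Day 4 against Day 2 in shSC. Its level was 6.40 and 6.32 normalized CPM in shSC Day 0, 3.95 and 4.68 at Day 2, and 9.50 and 9.08 at Day 4, and in shCTSL it was 6.94 and 6.21, 7.94 and 5.02, and 8.77 and 9.49. In shSC the 3 days did not overlap, with Day 2 lowest and Day 4 highest, and in shCTSL the Day 0 libraries lay between the Day 2 libraries. It rose between Day 2 and Day 4 in shSC, with a log2 fold change of 1.11 ± 0.21 (adjusted p = 0.00283). In shCTSL the change was 0.51 ± 0.21 (adjusted p = 0.09), or 0.84 ± 0.18 and called with Day 2 replicate 1 left out (adjusted p = 0.00131) and 0.20 ± 0.18 with replicate 2 left out (adjusted p = 0.333), and this difference between the lines was not tested. Against Day 0 its changes in shSC, -0.56 ± 0.22 at Day 2 (adjusted p = 0.042) and 0.55 ± 0.21 at Day 4 (adjusted p = 0.0396), were under 1.5-fold.

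The other tested linker genes varied between replicates. In shSC Hist1h1a stood at 0.610 and 1.43 normalized CPM at Day 0, 0.465 and 1.66 at Day 2, and 1.24 and 0.832 at Day 4, and in shCTSL at 1.64 and 1.47, 4.12 and 0.383, and 0.704 and 0.787. Hist1h1d stood at 2.95 and 0.213 in shCTSL Day 2 and between 0.199 and 1.18 in the other libraries, and Hist1h1e at 2.65 and 0.426 in shCTSL Day 2 and between 0.266 and 1.33 elsewhere. For these 3 genes replicate 1 of shCTSL Day 2 was the highest of the 12 libraries, and with all libraries no comparison of days called them. At Day 2 against Day 0 in shCTSL, all 3 were called higher without replicate 2, at 1.39 ± 0.48 for Hist1h1a (adjusted p = 0.0167), 1.82 ± 0.56 for Hist1h1d (0.00842) and 1.82 ± 0.50 for Hist1h1e (0.00348), and without replicate 1 Hist1h1a was called lower, at -1.98 ± 0.73 (0.0219). From Day 2 to Day 4 all 3 were called lower without Day 2 replicate 2, and none without replicate 1. Hist1h1b stood at 1.07 and 0.805 in shSC Day 0, 0.299 and 0.919 at Day 2, and 0.442 and 0.693 at Day 4, and in shCTSL at 0.671 and 0.527, 1.85 and 0.809, and 0.217 and 0.197. Between Day 2 and Day 4 in shCTSL its log2 fold change was -2.59 ± 0.66 (adjusted p = 0.0148), a call lost without Day 4 replicate 1 (adjusted p = 0.0809) or Day 4 replicate 2 (0.0859), or with only the libraries compared (0.0687). In shSC that change was -0.09 ± 0.60 (adjusted p = 0.935), and this difference between the lines was not tested. Hist1h1t, a testis-specific linker gene, had 16 counts in all and was not tested.

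The other H2A and H2B genes named by rule follow. Hist1h2al stood at 1.07 and 0.929 normalized CPM in shSC Day 0, 0.564 and 0.481 at Day 2, and 0.442 and 0.624 at Day 4, and in shCTSL at 1.04 and 0.948, 1.48 and 0.511, and 0.920 and 1.33, with no call between days. Hist1h2ab stood at 0.746 and 0.421 in shCTSL Day 0 and at 0.108 and 0.148 at Day 4, and at 0.229 and 0.248 and at 0.0442 and 0.208 in shSC on those days. Its log2 fold change by Day 4 in shCTSL was -2.18 ± 0.81 (adjusted p = 0.0352), a call lost without Day 0 replicate 1 (adjusted p = 0.258), Day 4 replicate 1 (0.12) or Day 4 replicate 2 (0.0896) and by DESeq2 (0.0713), and the lines differed by -1.09 ± 1.37 (adjusted p = 0.907). Hist2h2be stood between 0.985 and 2.11 in all 12 libraries. In shCTSL it stood at 1.64 and 2.11 at Day 0 and at 0.985 and 1.23 at Day 2, a change of -0.71 ± 0.26 (adjusted p = 0.041) whose call was lost without Day 0 replicate 1 (adjusted p = 0.0607), Day 0 replicate 2 (0.241) or Day 2 replicate 1 (0.163), by DESeq2 (0.124), without a count filter (0.107) and with only the libraries compared (0.154). In shSC it changed by -0.58 ± 0.24 (adjusted p = 0.0614), and this difference between the lines was not tested.

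Hist1h2bp is the H2B member with the lowest counts among those tested. It had 6 and 14 counts in shSC Day 0, 1 and 2 at Day 2, and 6 and 0 at Day 4, and in shCTSL 13 and 5, 3 and 6, and 3 and 0. Most of its counts lay in the Day 0 libraries, although replicates differed. It was called lower at Day 2 in shSC (adjusted p = 0.00955), where its 3 counts against 20 give a ratio of normalized counts of 0.0828 (counting interval 0.0158 to 0.279), and at Day 4 in shCTSL (adjusted p = 0.0146), where 3 counts against 18 give a ratio of 0.0984 (0.0186 to 0.337). The shSC call was lost without Day 0 replicate 2 (adjusted p = 0.0999) or Day 2 replicate 1 (0.0739), and the shCTSL call without Day 0 replicate 1 (0.137) or Day 4 replicate 2 (0.0813). The lines differed in the Day 4 change by -1.18 ± 1.43 on the log2 scale (adjusted p = 0.904), and the difference at Day 2 was not tested.

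Of the H3 genes, Hist1h3g held a call in both lines at Day 2. It stood at 1.52 and 1.30 normalized CPM in shSC Day 0, 0.299 and 0.306 at Day 2, and 0.574 and 1.11 at Day 4, and in shCTSL at 1.34 and 1.79, 0.985 and 0.426, and 0.541 and 0.394. The Day 0 libraries lay above all others in both lines. The log2 fold change by Day 2 was -2.19 ± 0.46 in shSC (adjusted p = 0.00203) and -1.20 ± 0.44 in shCTSL (adjusted p = 0.0355). The shCTSL call at Day 2 was lost on leaving out either shSC Day 0 library (adjusted p = 0.0501 and 0.05), either shSC Day 2 library (0.0524 and 0.0525), shCTSL Day 0 replicate 1 (0.0643) or replicate 2 (0.157), or shCTSL Day 2 replicate 2 (0.221), by DESeq2 (0.0621) and with only the libraries compared (0.115). By Day 4 its change in shCTSL was -1.72 ± 0.47 (adjusted p = 0.00811, and 0.0541 without Day 4 replicate 2). The change of -0.81 ± 0.42 in shSC did not pass (adjusted p = 0.113), and the lines differed by -0.91 ± 0.64 (adjusted p = 0.841).

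All 5 tested H3 genes had a negative log2 fold change at Day 2 and at Day 4 against Day 0 in both lines, with a median at Day 4 of -0.55 in shSC and -1.72 in shCTSL, where 3 of 5 were called lower, beside 27.6% of all genes tested. At Day 2 in shCTSL this rests on the library used, since Hist1h3e changed by -0.23 ± 0.73 with both, by -1.57 ± 0.72 without replicate 1 and by 0.62 ± 0.56 without replicate 2. Hist1h3c stood at 0.762 and 1.18 normalized CPM in shSC Day 0, 0.631 and 0.657 at Day 2, and 0.751 and 0.555 at Day 4, and in shCTSL at 1.04 and 1.79, 1.23 and 0.511, and 0.271 and 0.541. Its log2 fold change by Day 4 in shCTSL was -1.72 ± 0.54 (adjusted p = 0.0156), a call lost without Day 0 replicate 2 (adjusted p = 0.106) or Day 4 replicate 1 (0.0901), and the lines differed by -1.17 ± 0.74 (adjusted p = 0.821). Hist1h3d stood at 0.895 and 0.843 in shCTSL Day 0 and 0.325 and 0.197 at Day 4, and at 0.457 and 0.186 and at 0.309 and 0.277 in shSC. The shCTSL days did not overlap, and those of shSC did. Its log2 fold change in shCTSL was -1.73 ± 0.65 (adjusted p = 0.0375), and the lines differed by -1.67 ± 1.01 (adjusted p = 0.81). Leaving out any 1 of the 4 libraries compared ended that call (adjusted p = 0.0642 to 0.161), as did leaving out either shSC Day 4 library (0.0528 each) and DESeq2 (0.0749). Hist1h3a stood at 0.839 and 0.558 in shSC Day 0 and at 0.199 and 0.219 at Day 2, a log2 fold change of -1.69 ± 0.65 (adjusted p = 0.0431) that was not called by DESeq2 (adjusted p = 0.0635). It was lost on leaving out any 1 of the 4 libraries compared (adjusted p = 0.0706 to 0.203), either shCTSL Day 0 library (0.0607 and 0.0605) or shCTSL Day 4 replicate 1 (0.0501). In shCTSL the Day 2 change of Hist1h3a was -0.98 ± 0.61 (adjusted p = 0.183), or -1.96 ± 0.70 and called with replicate 1 left out (adjusted p = 0.0183) and -0.24 ± 0.58 with replicate 2 left out (adjusted p = 0.725), and this difference between the lines was not tested. Hist1h3e was not called and lay between 0.197 and 1.42.

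H4 had the fewest genes tested, 3 of 13. Hist1h4i, the highest per kilobase, stood at 2.90 and 1.92 normalized CPM in shSC Day 0, 1.26 and 0.788 at Day 2, and 2.08 and 1.39 at Day 4, and in shCTSL at 2.69 and 1.58, 1.97 and 1.53, and 1.08 and 1.33. In shSC the Day 2 libraries lay below those of both other days. In shSC its log2 fold change by Day 2 was -1.19 ± 0.36 (adjusted p = 0.0146), a call lost without Day 0 replicate 1 (adjusted p = 0.136) or Day 2 replicate 2 (0.0938). In shCTSL that change was -0.34 ± 0.37 (adjusted p = 0.439), with -0.49 and -0.16 on leaving out Day 2 replicate 1 or 2, and this difference between the lines was not tested. Hist1h4d lay between 0.332 and 1.05 outside shCTSL Day 2, where it stood at 2.09 and 0.511 and was called higher than at Day 0 when replicate 2 was left out (1.40 ± 0.46, adjusted p = 0.0126), and Hist1h4h, which was not tested, between 0.108 and 0.682 outside that group and at 1.35 and 0.426 within it.

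The comparison of the lines asked whether knockdown of Ctsl went with other histone transcript levels. By edgeR 0 of 24 members were called at Day 0, at Day 2 or at Day 4, beside 0.0386%, 0.0644% and 0.0129% of all genes tested. At an unadjusted p under 0.05 there were 0 members at Day 0, 6 at Day 2 and 2 at Day 4, all higher in shCTSL, beside 7.26%, 19.4% and 12.2% of all genes tested, and DESeq2 called 0 on each day. The lowest adjusted p was 0.697 at Day 0 (Hist1h3d), 0.222 at Day 2 (Hist3h2a) and 0.402 at Day 4 (Hist1h2al). At Day 0 the median log2 difference was 0.14 over the members tested and -0.02 over all genes, and at Day 4 it was -0.35 and -0.00. All these edgeR tests share an estimate of the spread that includes the shCTSL Day 2 pair. Without both of those libraries 0 members were called at Day 0, beside 1.36% of all genes tested. Ctsl itself was not called at Day 4 with all libraries, so a lack of calls does not show that the lines had like levels.

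At Day 2 all 24 tested members had the higher mean in shCTSL, with a median log2 difference of 0.92 against 0.02 over all genes. This follows replicate 1 of shCTSL Day 2. Without replicate 1, 14 members were higher and 10 lower, with a median of 0.08 and 0 calls. Without replicate 2, 23 were higher, the median was 1.65 and 17 members were called higher, beside 15.6% of all genes called higher and 16.7% lower. At Day 4, leaving out either or both of the shCTSL Day 2 libraries, which the comparison does not use, gave 1 call among the 24 members, Hist1h2al, higher in shCTSL, beside 5.90% to 5.94% of all genes tested. With all libraries its log2 difference was 1.12 ± 0.48 (adjusted p = 0.402).

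The change from Day 0 to Day 4 was then compared between the lines as an interaction. By edgeR 0 of 24 members were called, beside 0.00644% of all genes tested, with 0 at an unadjusted p under 0.05 and 0 by DESeq2. The median was -0.67 over the members tested, 19 of which were negative, and 0.02 over all genes. The lowest adjusted p was 0.779, for Hist1h2bc. Without both shCTSL Day 2 libraries 0 members were called, beside 1.66% of all genes tested. The median SE of a member in this comparison with all libraries was 0.91 on the log2 scale, so a miss here does not show that the lines changed alike.

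Promoters of 61 members were found in the RefSeq GRCm38.p6 promoter set, each 250 bases before to 50 bases after the start, and motifs were searched on both strands. The octamer ATTTGCAT, the element bound by POU domain factors such as the product of Pou2f1, was in 14 of 61 members (23%) and in 518 of 26964 other genes (1.92%). By class it was in 7 of 17 H2A and 7 of 16 H2B promoters and in 0 of the H1, H3 and H4 promoters. The CCAAT box was in 52 of 61 members (85.2%) and in 41% of other genes, in every H1, H2A, H2B and H3 promoter searched but in 3 of 12 of H4. TATAAA was in 35 of 61 members (57.4%) and in 15.6% of other genes. The octamer, shown in capitals on the coding strand of the H2B gene, is printed for 5 of the 7 H2B members with it, as an element found in no H1, H3 or H4 promoter searched.
Hist2h2bb: tgaaacctcATTTGCATacaagctct
Hist1h2bm: ctcgtctctATTTGCATaacagcgtg
Hist1h2bk: tttcactttATTTGCATacgaagttc
Hist1h2bg: gagtcccttATTTGCATagaacctct
Hist1h2bb: gagtctcttATTTGCATaaagccttt
By exact match to NCBIM37 these windows lie at chr3:96073566-96073591 (Hist2h2bb), chr13:21813879-21813904 (Hist1h2bm), chr13:22127651-22127676 (Hist1h2bk), chr13:23663201-23663226 (Hist1h2bg) and chr13:23838504-23838529 (Hist1h2bb), all on the plus strand. H2A and H2B genes that lie head to head share the promoter window, so their matches are not separate. A match describes these letters and is not a tested site.

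Genes that act with the histone genes were read from lists. Of 32 genes of S phase and DNA replication, 24 were called lower at Day 2 and 30 at Day 4 against Day 0 in shSC, and 23 and 30 in shCTSL, with 0 higher by edgeR. Of all genes tested 25.3% and 28.7% were called lower in these comparisons in shSC and 24.6% and 27.6% in shCTSL, shares that stand beside the counts of each list below. The median log2 fold change of the 32 genes at Day 4 was -1.29 in shSC and -1.47 in shCTSL, beside 0.03 and 0.06 over all genes tested. The summed level of the 32 was 8952 ± 112 normalized CPM (SD, n = 2) in shSC Day 0, 4628 ± 47.3 at Day 2 and 3388 ± 162 at Day 4. Ccne1, the cyclin that starts S phase, went from 410.4 and 419 to 34.1 and 44.9 in shSC at Day 4 (-3.39 ± 0.16, adjusted p = 5.11e-08). Mcm10, a replication initiation factor, and Uhrf1, which maintains DNA methylation at replication, were lower, at -2.70 ± 0.10 (adjusted p = 1.19e-08) and -2.17 ± 0.22 (adjusted p = 1.13e-05). All 11 mitosis genes were called lower at Day 4 in both lines (7 at Day 2 in shSC and 8 in shCTSL), with medians at Day 4 of -1.57 and -1.59. The lowest log2 fold changes in shSC among them were -1.81 ± 0.13 for Ccnb1, the mitotic cyclin (adjusted p = 9.76e-07), -1.76 ± 0.15 for Top2a, a topoisomerase (adjusted p = 3.47e-06), and -1.68 ± 0.15 for Aurka, a mitotic kinase (adjusted p = 4.9e-06). Without Day 2 replicate 1 or replicate 2 of shCTSL, the genes called lower at Day 2 in that line were 25 and 21 of S phase and 8 and 8 of mitosis. The summed level of all histone members was 52.3 ± 3.09 at Day 0 and 54.2 ± 0.285 at Day 4 in shSC, and 62.0 ± 3.62 and 46.1 ± 1.70 in shCTSL, and that of the short members was lower at Day 4 in both lines.

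The factors of histone gene transcription and 3′ end formation were read next. Of 22 genes, 10 were called lower at Day 2 and 14 at Day 4 in shSC, and 13 and 13 in shCTSL (13 at Day 2 without replicate 1, and 12 with 1 higher without replicate 2), with 0 higher by edgeR otherwise and a median at Day 4 of -0.69 and -0.82. Slbp stood at 175 and 166 normalized CPM in shSC Day 0, 88.9 and 91.3 at Day 2, and 84.8 and 87.5 at Day 4, and in shCTSL at 193 and 195, 97.2 and 92.8, and 89.3 and 95.1. All Day 0 libraries lay above all later ones, and the later days lay close together. Its log2 fold change by Day 2 was -0.92 ± 0.09 in shSC (adjusted p = 1.26e-05) and -1.03 ± 0.09 in shCTSL (adjusted p = 5.7e-06), and by Day 4 it was -0.99 ± 0.09 (adjusted p = 5.73e-06) and -1.08 ± 0.09 (adjusted p = 3.21e-06). Npat, the coactivator of histone gene transcription, stood at 126 and 117 in shSC Day 0, 104 and 109 at Day 2, and 139.7 and 125 at Day 4, and in shCTSL at 115 and 120.4, 57.0 and 96.97, and 116 and 87.8. It was called lower at Day 2 in shCTSL (-0.61 ± 0.22, adjusted p = 0.0315), which did not hold without Day 2 replicate 1 (-0.24 ± 0.13, adjusted p = 0.102), and in no other comparison with all libraries, its change in shSC being -0.20 ± 0.22 (adjusted p = 0.442), and this difference between the lines was not tested. Zfp473, a zinc finger protein of histone 3′ end processing, changed by -2.40 ± 0.13 at Day 4 in shSC (adjusted p = 1.64e-07), and Snrpd3, a core protein of small nuclear ribonucleoproteins, by -1.45 ± 0.16 (adjusted p = 1.69e-05). Snrpg, of the same core, changed by -1.29 ± 0.36 in shSC (adjusted p = 0.00858, with 0.0574 without Day 0 replicate 2 and 0.0511 without Day 4 replicate 1), and the lines differed by 0.70 ± 0.50 (adjusted p = 0.841).

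Most transcripts of histone chaperones and importers were called lower by Day 4. Of 13 genes, 7 were called lower at Day 2 and 10 at Day 4 in shSC, beside 25.3% and 28.7% of all genes, and 7 and 11 in shCTSL, beside 24.6% and 27.6% (7 and 6 at Day 2 without replicate 1 or 2), with 0 higher by edgeR and a median at Day 4 of -0.77 and -0.85. Asf1b, a chaperone of H3 and H4, stood at 77.2 and 81.9 normalized CPM in shSC Day 0 and at 22.3 and 28.4 at Day 4 (-1.66 ± 0.13, adjusted p = 1.61e-06). For Nasp, a histone chaperone, the change was -1.60 ± 0.10 (adjusted p = 3.88e-07), and for Ipo7, a nuclear importer, -1.27 ± 0.29 (adjusted p = 0.00262).

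The replacement histone genes lie outside the clusters and mostly give mRNAs with tails. They were called in both directions, at Day 4 at shares near those of all genes tested. Of 11, 3 were called higher and 4 lower at Day 4 in shSC, and 4 and 3 in shCTSL, with a median of -0.03 and 0.16, beside 32.1% higher and 28.7% lower of all genes in shSC and 32.3% and 27.6% in shCTSL. At Day 2 there were 3 and 3 in shSC, beside 29.3% and 25.3% of all genes tested. In shCTSL there were 5 and 1, beside 30.9% and 24.6%. The median there was 0.22 with all libraries, -0.03 without shCTSL Day 2 replicate 1 and 0.71 without replicate 2. H2afy2, a macroH2A gene, stood at 27.2 and 28.3 normalized CPM in shSC Day 0, 98.4 and 101 at Day 2, and 100.4 and 116 at Day 4 (1.96 ± 0.13, adjusted p = 3.89e-07). H2afx, whose product marks DNA breaks, changed by -1.31 ± 0.16 (adjusted p = 3.52e-05), and Cenpa, the H3 of centromeres, by -1.31 ± 0.21 (adjusted p = 0.000261).

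Many RNAs without a poly(A) tail were called lower after Day 0. Of 121 listed 72 were tested, and 46 were called lower at Day 2 and 53 at Day 4 in shSC with 0 higher by edgeR, and 41 and 42 in shCTSL with 2 higher at Day 2. Without shCTSL Day 2 replicate 1 the Day 2 counts of that line were 44 lower and 0 higher, and without replicate 2 they were 34 lower and 4 higher. Without Rn45s they summed to 189.9 ± 2.91 normalized CPM in shSC Day 0, 95.8 ± 5.91 at Day 2 and 92.6 ± 3.42 at Day 4, and in shCTSL to 195.8 ± 3.09, 123 ± 57.8 and 84.8 ± 0.663. Their median log2 fold change at Day 4 was -1.33 in shSC and -1.25 in shCTSL, beside -0.78 and -1.30 over the short histone members tested. The named ones are small nucleolar RNAs that guide the modification of other RNAs. Snora74a changed by -2.66 ± 0.40 at Day 4 in shSC (adjusted p = 0.000182) and Snord42b by -2.63 ± 0.48 (adjusted p = 0.00067), while Snord43 had 2 counts at Day 4 against 28 at Day 0, a ratio of normalized counts of 0.0564 (counting interval 0.00651 to 0.224, adjusted p = 0.00112). Rn45s, left out of the sums, took 0.217% and 0.293% of all counts in shSC Day 0 and 1.43% and 1.06% at Day 4. The shSC Day 2 libraries held 0.170% and 0.726%. In shCTSL it took 0.212% and 0.431% at Day 0 and 0.376% and 0.228% at Day 4. What part the capture of tail-less RNA had in the histone levels was not tested. With all libraries 0 genes of these 6 lists were called by edgeR between the lines or in the interaction. Without shCTSL Day 2 replicate 1 there was 1 call in these lists between the lines at Day 2, a tail-less RNA that was lower. Without replicate 2 each list had calls, with 7 of 11 replacement histone genes higher, and 11 of 72 tail-less RNAs higher and 5 lower, beside 15.6% of all genes called higher and 16.7% lower.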

How the data were processed

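Integer counts per RefSeq gene were deposited by the authors for 12 libraries, prepared with poly(A) selection and a directional kit and sequenced as 75-base single reads. Alignment by the authors used STAR 2.3.0e and mm9, SAMtools 0.1.19 took out mitochondrial reads and those of low mapping quality, and featureCounts 1.6.2 counted; its strand setting is missing from the sources at hand. Counts were tested with edgeR 4.0.16 in R 4.3.3 on the whole table: filterByExpr with a minimum count of 10 (15532 of 24495 genes), TMM, group means over 12 libraries and quasi-likelihood tests with 6 residual degrees of freedom. P-values were adjusted by Benjamini-Hochberg over all genes tested. A gene was called when its adjusted p was under 0.05 and its change reached 1.5-fold, since the study's fold cutoff reads as either a fold or a log2 value; a log2 value of 1.5 was an alternative. Errors are SE for log2 fold changes and SD of 2 libraries for levels. P-values measure only the spread between these libraries, and nothing beyond the replicate labels was used to tell how the cultures were separated.

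The members and lists were chosen with earlier results of these data known. Named with values are the 3 members of each class with the highest mean level, up to 4 called members in each direction at Day 2 and Day 4 against Day 0 in each line, the tested H1 genes, any member called between lines, and from each other list the 3 called genes with the largest change in shSC at Day 4 against Day 0, with Slbp and Npat. Members outside this rule that are named, such as Hist1h1t and those at 0, and Trim17 and Pou2f1 were chosen after their values were seen.

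Exonic lengths, stop codons and positions came from GENCODE M1 on NCBIM37, since the mm9 RefSeq models were not available, so levels per kilobase depend on that annotation; lengths were matched for 14027 of the tested genes. The stem-loop and promoter searches ran in Python 3.11.15, promoters being RefSeq GRCm38.p6. Figures were drawn with matplotlib 3.10.9. Alternatives were RLE scaling, DESeq2 1.42.0, other filters and fold cutoffs, library totals without Rn45s for the sums, a replicate block, only the libraries compared, and each library left out in turn; for the lists and for Slbp, Npat and Ctsl, leaving out each shCTSL Day 2 library was chosen after seeing the data. Intervals of single-library shares are exact Clopper-Pearson at 95%, and floors are 3 counts; both cover counting error only. The test steps were tested on simulated data for shSC Day 2 against Day 0, with the same spread for every gene and no pair that stood apart. Only genes with more counts than most members have were changed there, so the range of most members was not checked.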

Additional observations from a re-analysis of the deposited data

How the results depend on the processing

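None of the 31 member results called with all libraries changed direction under an alternative, whereas Hist1h1a, not called with all of them, was called lower at Day 2 against Day 0 in shCTSL without Day 2 replicate 1 and higher without replicate 2. Over the 31 results and their alternatives, the fold cutoffs and the 1 CPM filter aside, 485 of 546 values kept the call, and of the 61 that lost it 51 left out 1 library and 10 were other settings (DESeq2 5, only the libraries compared 4, no count filter 1). Most of these values left out a library, and most of those libraries were not ones that the comparison uses. Most lost calls came on leaving out a library compared, so the total does not measure how the calls hold in that case. RLE scaling, the replicate block and leaving out both shCTSL Day 2 libraries, an alternative chosen after seeing the data, lost 0 of 31, 0 of 31 and 0 of 23. The count of calls in shCTSL at Day 4 against Day 0 was 10 with the replicate block, beside 59.4% of all genes tested. Of the 69 members 45 were not tested and 9 had no count, and of the 28 with under 50% unique windows 3 were tested; the parts of depth, shared sequence and expression in this were not told apart.

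With a log2 cutoff of 1.5 the calls went from 7 to 4 (shSC Day 2 against Day 0), from 4 to 3 (shSC Day 4 against Day 0), from 3 to 1 (shSC Day 4 against Day 2), from 6 to 2 (shCTSL Day 2 against Day 0) and from 2 to 1 (shCTSL Day 4 against Day 2), as a stricter cutoff must. The share of all genes tested that was called fell in the same order, from 54.6% to 24.7%, 60.7% to 30.8%, 23.8% to 9.41%, 55.5% to 25.6% and 23.4% to 8.45%. A filter of at least 1 CPM in 2 libraries left 18 members tested, and the calls went from 7 to 5 in shSC Day 2 against Day 0 and from 9 to 6 in shCTSL Day 4 against Day 0. Of all genes tested, the share called went from 54.6% to 55.6% and from 59.9% to 61.1%. With only the libraries compared the calls went from 3 to 6 and from 2 to 0 in the Day 4 against Day 2 comparisons of shSC and shCTSL. The share of all genes went from 23.8% to 28.8% and from 23.4% to 8.01%. Without both shCTSL Day 2 libraries, shSC Day 4 against Day 2 had 6 calls and the lines at Day 4 had 1, beside 28.1% and 5.90% of all genes tested. Leaving out 1 library gave 4 to 10 calls in shSC Day 2 against Day 0, 3 to 6 in Day 4 against Day 0 and 2 to 6 in Day 4 against Day 2. In shCTSL it gave 4 to 12, 5 to 11 and 0 to 11. Between the lines it gave 0 to 0 at Day 0, 0 to 17 at Day 2 and 0 to 1 at Day 4, and 0 to 0 in the interaction. In each comparison the share of all genes tested that was called also moved with the library left out. The cause of these shifts was not tested.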

Other observations

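The members include 13 pairs of genes that start head to head, 167 to 305 bases apart, and each is an H2A gene with an H2B gene. The partners of a pair could differ widely in level per kilobase of annotated exon. Hist1h2ac stood at 0.0594 normalized CPM per kilobase (31 counts) and its partner Hist1h2bc at 13.6 (1955 counts). The pseudogene Hist3h2bb-ps stood at 0.0644 (6 counts) and Hist3h2a at 3.27 (1473 counts). Hist1h2ae stood at 2.09 (273 counts) and Hist1h2bg at 0.545 (70 counts), while Hist1h2ag and Hist1h2bj were closer, at 0.606 and 0.712. Of the windows of Hist1h2ac 90.3% are found once in the genome, and of those of Hist1h2bc 50.3%. In the other pairs named above the lower partner had the smaller share of such windows. Hist3h2bb-ps had 80.8% against 99.1% in Hist3h2a, and Hist1h2bg 52.6% against 65.6% in Hist1h2ae. Hist1h2ag had 19.4% against 49.1% in Hist1h2bj. Among the pairs not named above, some went the other way. Hist1h2ai was lower than Hist1h2bl (0.317 against 0.478) with the larger share of windows, 70.5% against 26.7%. So was Hist1h2ah against Hist1h2bk (0.461 and 0.669), with 34.8% against 27.9%. In the remaining pairs with counts the lower partner had the smaller share. The part of shared sequence in these levels was not tested. In 2 pairs, Hist1h2bq with Hist1h2ao and Hist1h2ap with Hist1h2br, all 4 genes were at 0 and had no unique window. These pairs were chosen after their values were seen.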
